A study of Mus musculus with 342 samples.

Results

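CC006/TauUnc belongs to the Collaborative Cross, a set of inbred mouse lines in which the genomes of diverse founder strains were recombined, so that mice of a line share a genotype. Its liver response to TAK-875 was followed in the 6 mice whose line label is CC006/TauUnc, of 342 mice from 44 lines. All were males 8 to 10 weeks old at dosing. Of the 6 mice, 3 had received 1 oral dose of TAK-875 at 600 mg/kg in methylcellulose, and 3 had received the methylcellulose vehicle (0 mg/kg). Livers were taken 24 hours later, and whole liver RNA was read on Affymetrix HT MG-430 PM arrays. The labels tie each TAK-875 mouse to 1 vehicle mouse treated with it. The 3 pairs carry the numbers 1, 3 and 4 within the line, and pair number 2 is not analysed here. The other 43 lines supplied 336 mice in 168 pairs, treated in the same way. In all, 5 lines have 3 pairs and 39 have 4. The question set by the design is how the livers of 1 genetic background answered the drug, and how that answer compares with the panel.

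TAK-875 (fasiglifam) activates GPR40, a receptor for free fatty acids on pancreatic beta cells, and raises glucose-dependent insulin secretion. Its clinical development was stopped over liver injury. In liver, fatty acids and several drugs act on PPARA, a nuclear receptor that switches on fatty acid oxidation in mitochondria and peroxisomes. Sterol synthesis is driven by SREBF2 when cell cholesterol is low, and the unfolded protein response raises chaperones of the endoplasmic reticulum (ER) when proteins fold poorly there.

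Values below are log2 expression levels of 1 probe set per gene, so a difference of 1 is a doubling, and levels of different genes are not compared. A change is the TAK-875 level minus the vehicle level of the same pair. A gene was said to have risen, fallen or differed when its Benjamini-Hochberg adjusted p in limma was under 0.05, over 9093 genes. The spread of a gene was estimated from all 171 pairs, so that standard errors (SE) for CC006/TauUnc rest on 3 of its own pairs and on the assumption that it varies like the other lines. Its own spread was wider in part: the median SD of a gene was 0.245 over its TAK-875 arrays, rank 22 of the 44 lines, and 0.324 over its vehicle arrays, rank 3. The spread among the CC006/TauUnc pairs is therefore given where it is far above the SE.

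The 6 arrays differed in their medians and in their correlation with the others of their group. Whether this comes from the arrays or from the mice was not tested. Array medians were 5.88, 6.00 and 6.05 in the TAK-875 livers of pairs 1, 3 and 4, against 5.94, 5.94 and 5.59 in the vehicle livers. By its median the vehicle array of pair 4 stood apart, and 3 of 171 vehicle arrays had a lower median. Over the 9093 genes, the median change was -0.02 in pair 1, 0.05 in pair 3 and 0.26 in pair 4. Array medians were taken over all 16397 probe sets, and these changes over 1 probe set per gene. Centring arrays on their medians therefore need not level the genes tested. On average, arrays correlated with the others of their group by 0.963 to 0.974 in TAK-875 livers and by 0.952 to 0.958 in vehicle livers. The median over all arrays was 0.976. The vehicle array of pair 3 was the lowest of the line, and 25 of 342 arrays were lower. The 17 measured hepatocyte markers averaged 12.56 to 12.58 in TAK-875 livers and 12.52 to 12.61 in vehicle livers, as the liver label has it. For the genes that passed, values without pair 4 are given beside the results.

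In CC006/TauUnc livers, 45 of 9093 genes (0.495%) passed the test, of which 35 (0.385%) rose and 10 (0.11%) fell with TAK-875. Of the 45, 44 moved the same way in all 3 pairs, and 26 changed at least 2-fold. The exception was Zfp330, whose mean change was 3.02 without pair 1, 1.25 without pair 3 and 1.07 without pair 4. At an unadjusted p under 0.05 there were 1002 genes (11%). Of all lines, 15 had more genes past the test. The TAK-875 and vehicle arrays did not overlap for 39 of the 45. Over all genes, 7.02% were higher and 2.96% lower without overlap. Without pair 4, 3 genes passed (Ces2b, Ramac and Myo19), without pair 3, 11, and without pair 1, 153. With each array centred on its median, 28 passed, 15 higher and 13 lower. The changes of the 3 pairs correlated across genes by -0.03 (pairs 1 and 3), -0.01 (pairs 1 and 4) and 0.06 (pairs 3 and 4).

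Ces2b, a carboxylesterase that hydrolyses esters in the endoplasmic reticulum, was the only gene that passed whichever pair was left out. It read 4.66, 4.70 and 3.57 in the TAK-875 livers of pairs 1, 3 and 4, against 2.73, 3.23 and 2.64 in the vehicle livers. Every TAK-875 liver was above every vehicle liver. The vehicle values were low on the scale of these arrays, whose deposited values ran from 1.62 to 13.81. The rise was 1.44 ± 0.21 (SE, n = 3 pairs, adjusted p 5.55e-07 by limma), and the other lines averaged -0.03, with line means from -1.04 to 0.40. With 1 pair left out its adjusted p ran from 3.29e-06 to 0.0029. These p-values use the spread of all lines, and the 3 pairs fitted alone gave 0 calls in limma. The CC006/TauUnc vehicle mean was 0.97 below the mean of the other lines, whose vehicle means ran from 2.37 to 9.77, but it ranked 14 from the top of the 44 lines, since a few high lines raise that mean.

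Ramac, the activating subunit of the enzyme that methylates the messenger RNA cap, read 6.87, 6.48 and 6.94 in TAK-875 livers, against 6.13, 4.74 and 5.96 in vehicle livers. The groups did not overlap, and pair 3 moved most. Its rise was 1.15 ± 0.21 (SE, adjusted p 0.000711 by limma), and the other lines averaged -0.11. Without pair 3 the adjusted p was 0.139. The line difference of Ramac (CC006/TauUnc minus the mean of the other lines) was -0.44 in TAK-875 mice and -1.70 in vehicle mice. Its vehicle mean was the lowest of the 44 lines. Myo19, a myosin that moves mitochondria, rose by 0.91 ± 0.19 (SE, adjusted p 0.00371) and is named here after its values were seen, because it passed without pair 4 (without pair 3 the adjusted p was 0.246). It read 5.67, 5.61 and 5.26 in TAK-875 livers and 4.94, 4.18 and 4.69 in vehicle livers.

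The largest rise was that of Scyl2, a pseudokinase of clathrin-coated vesicles. It read 4.95, 4.80 and 5.19 in TAK-875 livers, against 2.80, 3.40 and 2.57 in vehicle livers, with no overlap. The rise was 2.06 ± 0.41 (SE, adjusted p 0.00293), while the other lines averaged 0.18 with line means from -0.69 to 0.92. Its TAK-875 livers lay 0.23 below the mean of the other lines, and its vehicle livers 2.10 below. Isoc2b, which encodes an isochorismatase domain protein, read 8.02, 5.34 and 7.73 in TAK-875 livers, against 5.10, 5.25 and 5.32 in vehicle livers. It moved widely in pairs 1 and 4 and by 0.09 in pair 3, and its mean rise was 1.81 ± 0.28 (SE, adjusted p 7e-06), with an SD of 1.51 over its own 3 pairs. Sh3gl3, an endophilin that bends membranes during endocytosis, read 6.89, 5.44 and 6.72 in TAK-875 livers and 5.72, 4.38 and 3.65 in vehicle livers. All 3 pairs rose, although the groups overlap, and the mean rise was 1.77 ± 0.25 (SE, adjusted p 5.55e-07), with an SD of 1.13 over the pairs. Cib3, a calcium-binding protein of the family that binds integrins, read 5.82, 5.60 and 6.18 in TAK-875 livers, against 4.34, 4.35 and 4.43 in vehicle livers. Its rise of 1.49 ± 0.31 (SE, adjusted p 0.00371) was even over the pairs, and its TAK-875 level lay 1.19 above the mean of the other lines. Without pair 4, none of these 4 passed, while the mean change was 1.77 for Scyl2 (adjusted p 0.335), 1.51 for Isoc2b (0.0522), 1.37 for Cib3 (0.28) and 1.11 for Sh3gl3 (0.226).

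**Figure D1:**
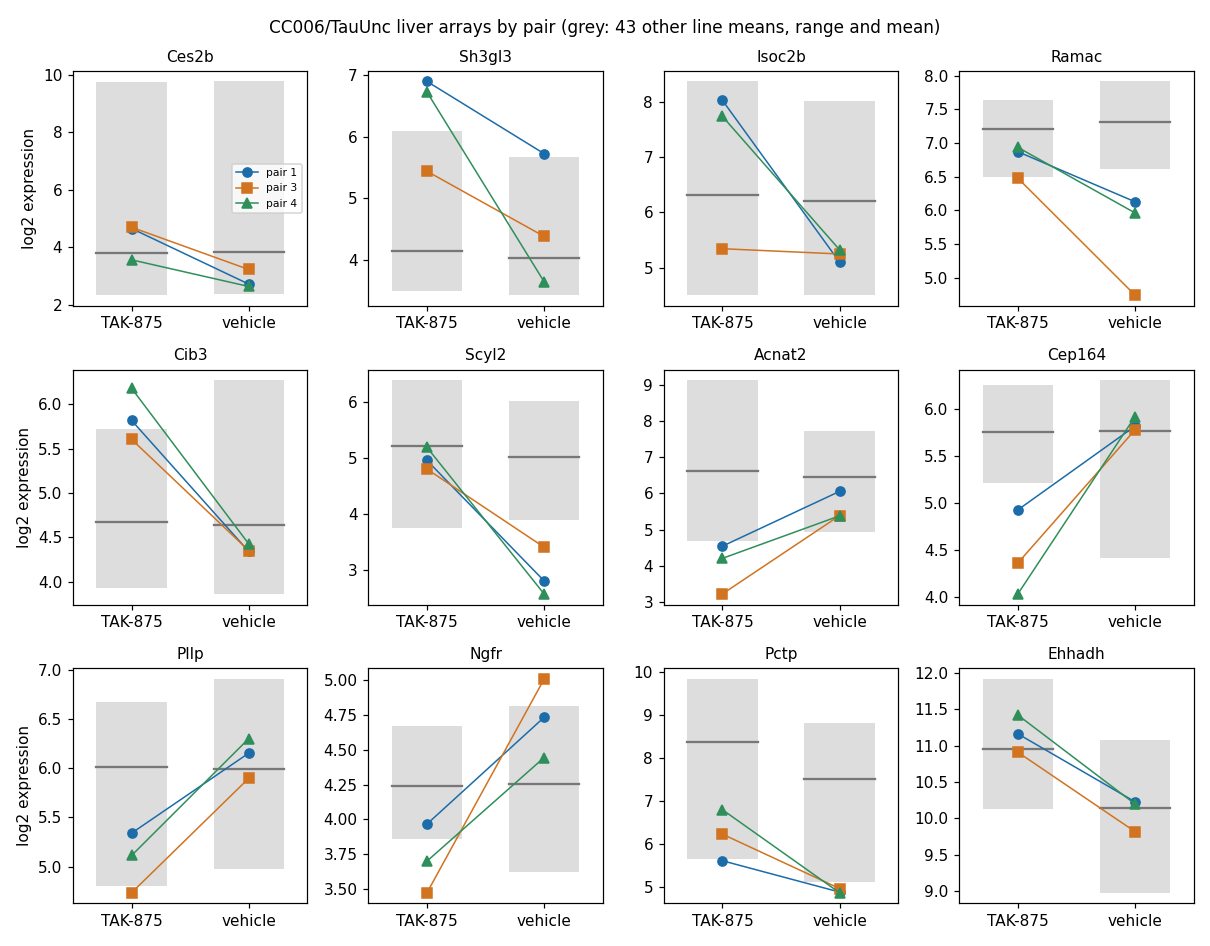
Log2 expression of 12 genes that passed the test in CC006/TauUnc, with TAK-875 arrays left and vehicle arrays right, and lines joining the mice of a pair. Grey bars run over the 43 other line means in the same treatment and the grey line is their mean. All genes but Ehhadh were picked among those moving alike in all 3 pairs, so the shared slope of their lines follows from that choice. Sh3gl3 overlaps between groups, and Isoc2b moves by 0.09 in pair 3.

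Other named genes that rose by more than 1 were of varied function. Rbm8a, a core protein of the exon junction complex, rose by 1.55, and Septin5, a cytoskeletal GTPase, by 1.35. Aph1b, a subunit of the gamma-secretase protease, rose by 1.28. Ubxn8, which tethers the p97 ATPase to the endoplasmic reticulum, rose by 1.10, and Dclre1a, a nuclease that repairs DNA crosslinks, also by 1.10. Tlk2, a kinase of chromatin assembly, rose by 1.12, Lysmd2 by 1.14 and Gm15270 by 1.29. Their adjusted p ran from 0.00325 for Ubxn8 to 0.0499 for Septin5, and none of these 8 passed without pair 4. Without it their mean changes ran from 0.82 for Dclre1a to 1.22 for Gm15270. Rbm8a read 6.82, 7.11 and 7.22 in TAK-875 livers and 6.72, 5.48 and 4.29 in vehicle livers, with an SD of 1.42 over the pairs. Its change was 0.86 without pair 4 (adjusted p 0.999). Against the mean of the other lines, these 8 genes lay from -0.36 (Lysmd2) to 0.67 (Gm15270) in TAK-875 mice, and none differed. In vehicle mice they lay from -1.40 (Aph1b) to -0.62 (Gm15270), and all but Rbm8a and Gm15270 differed. The vehicle means of Septin5, Aph1b, Lysmd2, Tlk2 and Dclre1a were the lowest of the 44 lines.

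Among the 10 genes that fell, Acnat2 fell most. It encodes a peroxisomal acyltransferase that joins fatty acids to amino acids. It read 4.54, 3.22 and 4.21 in TAK-875 livers, against 6.05, 5.38 and 5.38 in vehicle livers, with no overlap. The change was -1.62 ± 0.40 (SE, adjusted p 0.0337), whereas the other lines averaged 0.17 with line means from -0.56 to 2.38. Cep164, a centriole protein needed to build the primary cilium, read 4.93, 4.36 and 4.03 in TAK-875 livers, against 5.82, 5.78 and 5.92 in vehicle livers. Its line difference was -1.32 in TAK-875 mice and 0.07 in vehicle mice, and the change was -1.40 ± 0.28 (SE, adjusted p 0.00293). Rpgrip1, another protein of cilia, changed by -0.74 (adjusted p 0.0239). Tff3, a secreted trefoil peptide of mucosal surfaces, read 9.70, 6.40 and 8.91 in TAK-875 livers and 9.85, 9.10 and 10.55 in vehicle livers. Pair 1 barely moved and the groups overlap. The change was -1.50 ± 0.39 (SE, adjusted p 0.0472 by limma), with an SD of 1.28 over the pairs. Without pair 3 the change of Tff3 was -0.90 (adjusted p 0.515 by limma).

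The plasma membrane protein Pllp changed by -1.05 (adjusted p 0.0151), with 5.34, 4.74 and 5.11 in TAK-875 livers and 6.15, 5.90 and 6.30 in vehicle livers. Ngfr, the low-affinity neurotrophin receptor, changed by -1.02 (adjusted p 0.0237). Cux1, a homeodomain transcription factor, changed by -0.68 (adjusted p 0.0177), Nav2 by -0.70 and Garnl3 by -1.04. Kpna7, an importin, changed by -1.05, with an SD of 1.34 over the pairs, and this rests on 1 array. It read 3.59, 3.86 and 3.21 in TAK-875 livers and 4.10, 3.93 and 5.80 in vehicle livers, with pair 4 highest. None of the 10 falls passed without pair 4, although most changes were about as large. The change was then -1.84 for Acnat2 (adjusted p 0.252), -1.42 for Tff3 (0.634), -1.16 for Cep164 (0.508), -1.15 for Ngfr (0.226), -0.99 for Pllp (0.508) and -0.72 for Rpgrip1 (0.508). Garnl3 stood at -0.71 (0.922) and Kpna7 at -0.29 (0.999). In TAK-875 mice the levels of Cux1, Garnl3, Rpgrip1, Kpna7 and Nav2 did not differ from the other lines (from -0.29 to 0.10). Their vehicle levels were higher, by 0.42 for Nav2 to 0.96 for Garnl3. All but Nav2 had the highest vehicle mean of the 44 lines. In TAK-875 mice Acnat2 (-2.63), Cep164 (-1.32) and Pllp (-0.95) were lower than the other lines, and Tff3 was higher (2.13).

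Compared with the mean response of the other 43 lines, 21 genes (0.231%) differed, 14 higher (0.154%) and 7 lower (0.077%) in CC006/TauUnc. With arrays centred on their medians, 9 were higher and 9 lower. Tested against the spread of the other line means, 17 genes differed, 12 of them among the 21. The largest differences were 1.87 for Scyl2 (adjusted p 0.0156), 1.70 for Isoc2b (6.45e-05), 1.65 for Sh3gl3 (6.88e-06) and 1.60 for Mosmo (0.0448). Ces2b differed by 1.47 (6.81e-07), Cib3 by 1.45 (0.00983), Ramac by 1.26 (8.68e-05) and Tlk2 by 1.19 (0.0469). Mosmo, a membrane protein that lowers Smoothened in Hedgehog signalling, read 5.54, 5.04 and 5.72 in TAK-875 livers, against 4.17, 4.02 and 3.81 in vehicle livers. Its change of 1.43 did not itself pass (adjusted p 0.0599). Its line difference was 0.20 in TAK-875 mice and -1.40 in vehicle mice, where its mean was the lowest of the 44 lines. Tgds, an enzyme of nucleotide sugars, differed by 1.00 (adjusted p 0.0183), and its change had an SD of 0.77 over the pairs. Below the other lines were Acnat2 by -1.78 (0.0184), Cep164 by -1.38 (0.0064), Kpna7 by -1.08 (0.0206), Pllp by -1.07 (0.0184), Garnl3 by -1.01 (0.0462), Ngfr by -1.0 (0.0443) and Nav2 by -0.71 (0.0469). Without pair 4, 3 genes differed (Ces2b, Ramac and Myo19), without pair 3, 10, and without pair 1, 87.

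The genes that moved in nearly all other lines mostly moved the same way in CC006/TauUnc. In the other 43 lines the mean response of 2425 genes (26.7%) passed the test, 1334 rising (14.7%) and 1091 falling (12%). Of 91 genes that rose in at least 39 of those lines, 86 were also higher with TAK-875 in CC006/TauUnc, 61 of them in all 3 pairs. Over all genes, 64.4% were higher and 19.1% were higher in all 3 pairs. Their median change was 0.30 in CC006/TauUnc and 0.32 in the other lines. Of 64 genes that fell in at least 39 lines, 55 were lower in CC006/TauUnc, 38 in all 3 pairs, with medians of -0.27 and -0.30. Over all genes, 35.6% were lower and 8.31% were lower in all 3 pairs. With arrays centred, 70 of the 91 were higher (42.4% of all genes) and 62 of the 64 were lower (57.6%). Without pair 4 the counts were 79 (52.7%) and 54 (47.3%). Across all 9093 genes the change in CC006/TauUnc correlated with the mean of the other lines by 0.297, and 27 lines correlated more with the mean of their own others.

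Of the 10 largest rises and 10 largest falls shared by at least 39 of the other lines, Ehhadh and Pctp, both PPARA targets, passed the test in CC006/TauUnc. Ehhadh, an enzyme of peroxisomal fatty acid oxidation, read 11.16, 10.91 and 11.42 in TAK-875 livers, against 10.23, 9.82 and 10.20 in vehicle livers. The groups lay well apart, the pairs rose by 0.93 to 1.22, and the mean rise was 1.08 ± 0.28 (SE, adjusted p 0.0411) against 0.81 in the other lines, all 43 of which rose. Pctp, which carries phosphatidylcholine between membranes, read 5.60, 6.23 and 6.80 in TAK-875 livers, against 4.87, 4.96 and 4.86 in vehicle livers. It rose by 1.31 ± 0.27 (SE, adjusted p 0.00371), against 0.87 in the other lines. The line difference of Pctp was -2.18 in TAK-875 mice and -2.62 in vehicle mice (adjusted p 5.04e-13 and 1.06e-19), where its mean was the lowest of the 44 lines. The difference in change from the other lines was 0.28 for Ehhadh (adjusted p 0.833) and 0.44 for Pctp (0.694). Without pair 4, the change was 1.01 for Ehhadh (adjusted p 0.634) and 1.00 for Pctp (0.62).

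**Figure D2:**
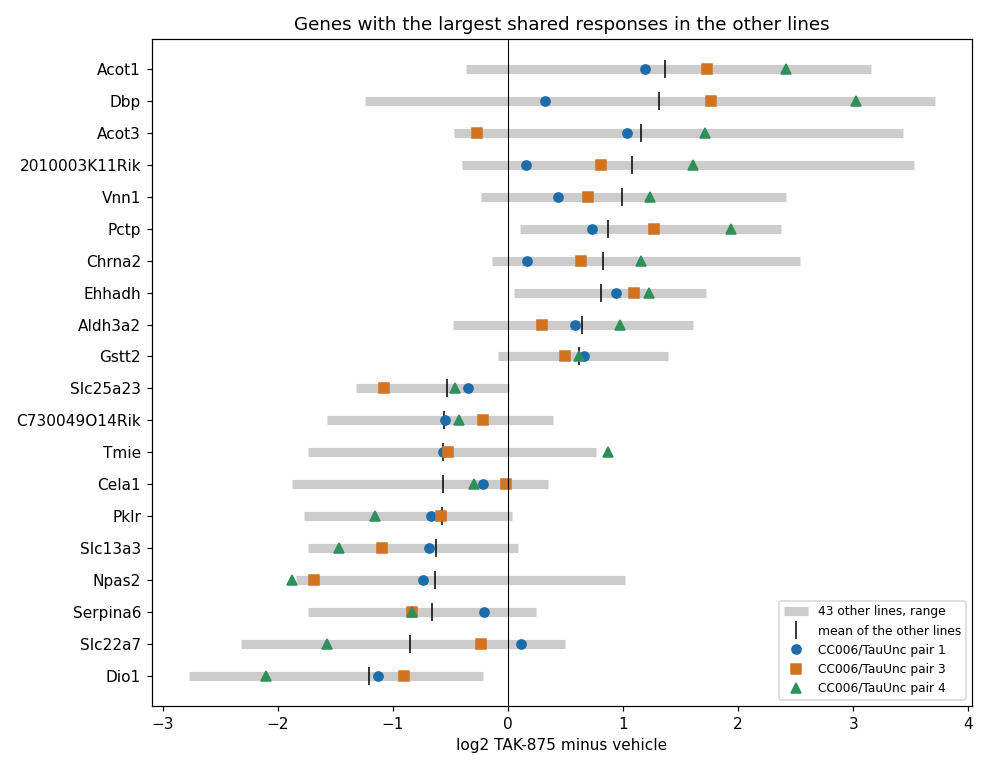
Log2 TAK-875 minus vehicle of the 10 largest rises and 10 largest falls shared by at least 39 of the 43 other lines, with 1 symbol per CC006/TauUnc pair, grey bars over the other line means and a black tick at their mean. Acot1, Vnn1, Pctp, Ehhadh and Gstt2 lie above 0 in all 3 pairs and Dio1, Npas2 and Slc13a3 below it, while Tmie (above) and Npas2 (below) leave the range of the other lines in pair 4. The probe set of Tmie is open to unrelated transcripts and that of Acot3 is shared within its gene family.

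Most other genes of these 20 had the panel's direction in CC006/TauUnc but did not pass. Acot1, a cytosolic acyl-CoA thioesterase, read 8.68, 7.28 and 9.04 in TAK-875 livers, against 7.49, 5.55 and 6.62 in vehicle livers. All 3 pairs were higher, although the groups overlap, and the mean change was 1.78 ± 0.76 (SE, adjusted p 0.342) against 1.36. The clock output factor Dbp changed by 0.32, 1.77 and 3.03 in pairs 1, 3 and 4, with a mean of 1.70 against 1.31 in the other lines. Vnn1, a pantetheinase, changed by 0.79 against 0.99, Gstt2, a glutathione transferase, by 0.59 against 0.62, and Aldh3a2, a fatty aldehyde dehydrogenase, by 0.62 against 0.64. Dio1, the deiodinase that activates thyroid hormone, read 8.87, 9.48 and 8.29 in TAK-875 livers, against 10.00, 10.39 and 10.39 in vehicle livers. Its groups did not overlap, and its change of -1.38 (adjusted p 0.621) compares with -1.20 in the other lines, all of which fell. Npas2, a clock transcription factor, changed by -1.43 against -0.64, and Slc13a3, a dicarboxylate transporter, by -1.08 against -0.62. Slc22a7, an organic anion transporter, changed by 0.12, -0.23 and -1.57 in pairs 1, 3 and 4.

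Gene lists are given by their counts and medians, beside a median of 0.10 over all genes. Over all genes, 19.1% were higher and 8.31% lower in all 3 pairs, and 8.22% were higher and 2.8% lower at an unadjusted p under 0.05. The mean change of all genes in CC006/TauUnc was itself the second highest of the 44 lines. Of 44 measured PPARA targets, 2 rose and none fell, 22 were higher in all 3 pairs and none was lower in all 3. Their median change was 0.28, against 0.27 in the other lines, and 9 were higher at an unadjusted p under 0.05. Acaa1a, a peroxisomal thiolase read by a probe set open to unrelated transcripts, changed by 0.83, 0.11 and 2.50, and Hsdl2, a peroxisomal dehydrogenase, by 0.18, 0.83 and 1.45. The median of the list was 0.13 with arrays centred and 0.19 without pair 4, when the median of all genes was -0.06 and 0.02. After quantile normalization the medians were 0.26 for the list and 0.0009 for all genes.

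Sterol synthesis genes were higher together, but none passed the test in limma. Of 16 measured members, 15 were higher in all 3 pairs and none was lower, 3 at an unadjusted p under 0.05. The median change was 0.66 in CC006/TauUnc and 0.21 in the other lines, and 6 of those had a higher list mean. Cyp51, the lanosterol demethylase, read 9.28, 9.74 and 9.82 in TAK-875 livers, against 8.23, 8.69 and 7.92 in vehicle livers. The groups did not overlap, and the change was 1.34 ± 0.67 (SE, adjusted p 0.452). Lss, the lanosterol synthase, read 7.52, 7.34 and 7.31 in TAK-875 livers, against 6.27, 6.99 and 5.08 in vehicle livers. Its TAK-875 values were even and its vehicle values spread, and it changed by 1.28 ± 0.62 (SE, adjusted p 0.426). Fdft1, the squalene synthase, changed by 0.96 and Hsd17b7, a sterol reductase, by 0.69. The list mean was 0.74, 0.37 and 1.05 in pairs 1, 3 and 4. The list median was 0.51 with arrays centred and 0.48 without pair 4, and 15 members were higher in both remaining pairs.

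**Figure D3:**
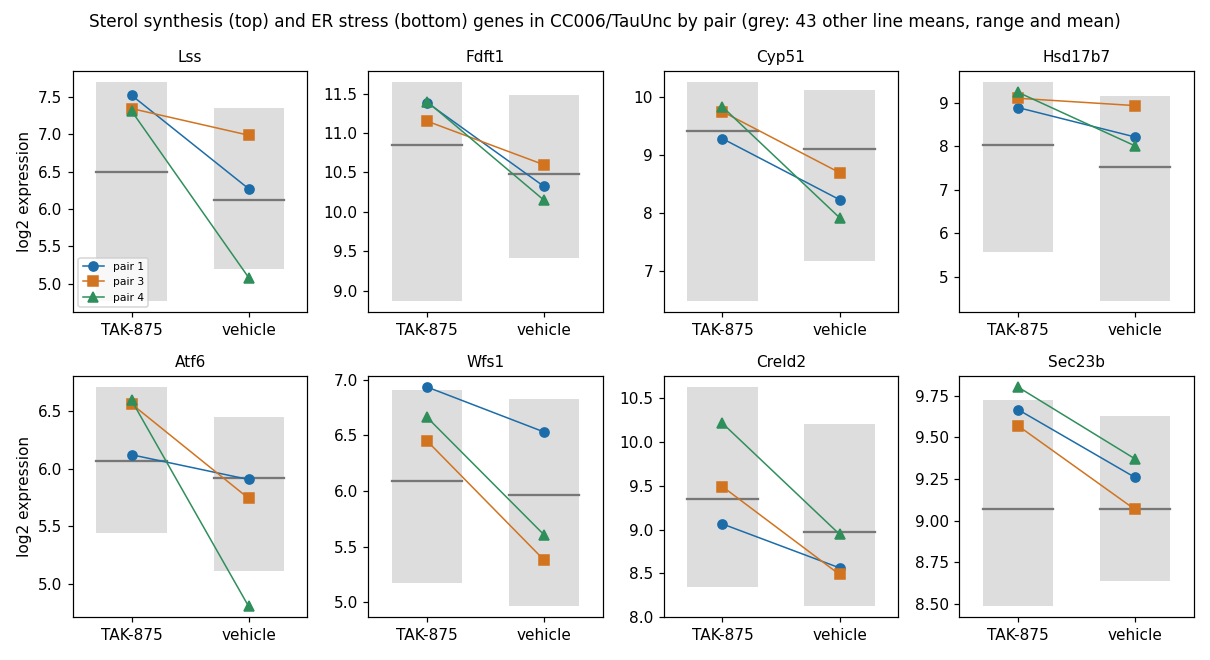
Log2 expression of 4 sterol synthesis genes (top row) and 4 genes of the unfolded protein response (bottom row), with TAK-875 arrays left and vehicle arrays right and lines joining the mice of a pair. Grey bars run over the 43 other line means and the grey line is their mean. These are the 4 genes of each list with the smallest p for this change in limma, which favours a shared slope. All 24 lines slope down from TAK-875 to vehicle, and no gene passed the test. Over the whole lists, 15 of 16 sterol genes and 16 of 34 unfolded protein response genes were higher in all 3 pairs.

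Genes of the unfolded protein response were also higher in part. Of 34 measured, none passed in limma, 3 were higher at an unadjusted p under 0.05, 16 were higher in all 3 pairs and none was lower in all 3. The 3 of 34 are near the share over all genes. The median change was 0.22, against 0.04 in the other lines, and 3 of those had a higher list mean. Atf6, an ER stress sensor that becomes a transcription factor, read 6.12, 6.56 and 6.59 in TAK-875 livers, against 5.91, 5.74 and 4.81 in vehicle livers. Its groups did not overlap, the change was 0.94 ± 0.27 (SE, adjusted p 0.102), and pair 4 supplied most of it (0.52 without pair 4, adjusted p 0.999). Creld2, a secreted ER stress protein, read 9.06, 9.49 and 10.21 in TAK-875 livers, against 8.56, 8.49 and 8.95 in vehicle livers, and changed by 0.92 (adjusted p 0.375). Wfs1, an ER membrane protein, changed by 0.84 and Sec23b, a coat protein of vesicles leaving the ER, by 0.45. With arrays centred, the list median was 0.06, and 6 members were higher and 1 lower in all 3 pairs. After quantile normalization it was 0.18, with 13 higher and 1 lower. The median of all genes was -0.06 and 0.0009 at these settings. Without pair 4 the list median was 0.23.

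The promoter windows of 3 of these genes are printed because they carry the ER stress response element, the sequence through which Atf6 and its partners act. The sequences are RefSeq's for GRCm38.p6 and run from 250 bases before to 50 bases after the gene's start, 5′ to 3′ on the gene's strand. The element searched for was CCAAT, then any 9 bases, then CCACG, on both strands, and capitals mark it. Creld2 was named by the rule, while Hspa5 and Derl3 were picked with their values in view. The windows are chr15:88819396-88819695 (plus strand) for Creld2, chr2:34771840-34772139 (plus strand) for Hspa5, the chaperone BiP, whose probe set is shared within its family, and chr10:75893148-75893447 (plus strand) for Derl3, a protein of ER-associated degradation.
Creld2: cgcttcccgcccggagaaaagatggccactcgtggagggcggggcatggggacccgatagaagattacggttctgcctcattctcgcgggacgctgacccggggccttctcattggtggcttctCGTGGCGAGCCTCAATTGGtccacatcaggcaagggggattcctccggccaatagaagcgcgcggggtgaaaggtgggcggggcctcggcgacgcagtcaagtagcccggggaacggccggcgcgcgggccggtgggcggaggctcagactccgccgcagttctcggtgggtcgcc
Hspa5: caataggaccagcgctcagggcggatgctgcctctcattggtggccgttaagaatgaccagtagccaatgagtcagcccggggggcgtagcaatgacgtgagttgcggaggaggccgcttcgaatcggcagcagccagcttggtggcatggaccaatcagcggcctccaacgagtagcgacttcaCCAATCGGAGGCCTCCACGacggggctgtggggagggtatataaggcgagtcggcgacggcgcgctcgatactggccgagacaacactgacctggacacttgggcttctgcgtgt
Derl3: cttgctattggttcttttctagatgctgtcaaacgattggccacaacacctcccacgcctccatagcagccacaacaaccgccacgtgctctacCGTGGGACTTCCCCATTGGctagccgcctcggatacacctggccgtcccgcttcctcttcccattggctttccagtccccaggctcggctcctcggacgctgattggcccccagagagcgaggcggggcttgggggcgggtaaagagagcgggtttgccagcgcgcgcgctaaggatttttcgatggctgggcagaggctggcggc

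The element was found in 14 of 7421 measured genes with a window (0.189%), and in 10 of the 29 unfolded protein response genes with a window. Having it did not go with a uniform change in CC006/TauUnc. Creld2 changed by 0.50, 1.00 and 1.26 in pairs 1, 3 and 4, Hspa5 by -0.04, 0.47 and 1.03, and Derl3 by -0.40, -0.45 and 0.11. In the other lines Derl3 averaged 0.87, the largest of the 10, and Hspa5 averaged 0.18. The median change in CC006/TauUnc was 0.18 over the 10 genes with the element, 2 of which were higher in all 3 pairs, and 0.26 over the 19 without it. A match describes these letters in this window and not a binding site.

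Chaperone and proteasome genes were higher by the same kind of count. Of 17 heat shock genes, 9 were higher in all 3 pairs, none was lower and none passed in limma, with 2 higher at an unadjusted p under 0.05. Their median change was 0.55, against 0.18 in the other lines, and it was 0.22 without pair 4. Cryab, a small heat shock protein of a probe set class shared by family members, read 6.83, 6.83 and 7.00 in TAK-875 livers, against 6.67, 5.87 and 6.28 in vehicle livers. Hspe1, the mitochondrial co-chaperonin, changed by 0.06, 0.86 and 0.55. Of 33 proteasome genes, 17 were higher in all 3 pairs, 2 were lower and none passed in limma, with 6 higher at an unadjusted p under 0.05. The subunit Psmb4 changed by 0.38 against 0.25 in the other lines. The median of the list was 0.21 against 0.13. With arrays centred it was 0.05, when 3 members were higher and 2 lower in all 3 pairs, against 905 and 1286 of 9093 genes. After quantile normalization it was 0.18, with 16 members higher and 2 lower, against 1172 and 1220 of all genes. Without pair 4 it was 0.21.

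**Figure D4:**
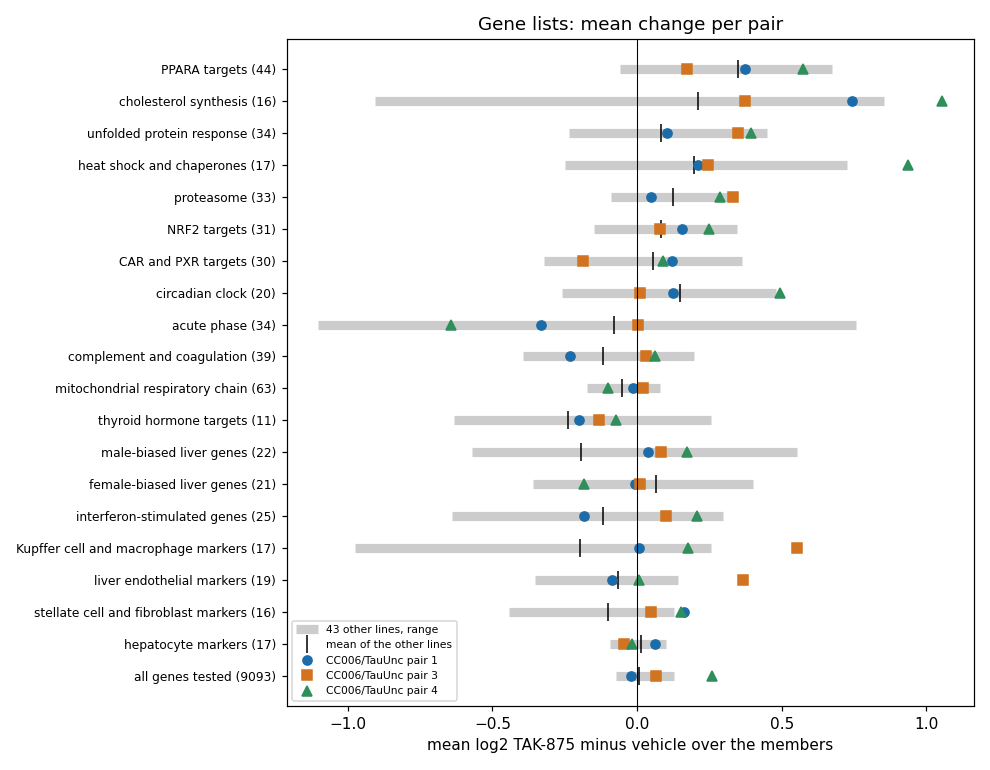
Mean log2 TAK-875 minus vehicle over the members of 19 gene lists and over all genes (number of measured members in brackets), with 1 symbol per CC006/TauUnc pair, grey bars over the 43 other lines and a black tick at their mean. Cholesterol synthesis lies at 0.74, 0.37 and 1.05 in pairs 1, 3 and 4, macrophage markers reach 0.55 in pair 3, and all genes reach 0.26 in pair 4.

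Acute phase, complement and respiratory chain genes each had more members lower than higher in all 3 pairs. Among 34 acute phase genes, 9 were lower and 2 higher in all 3 pairs, with a median of -0.17, against -0.04 in the other lines, and none passed in limma, with 3 lower at an unadjusted p under 0.05. Mt1, a metal-binding metallothionein whose probe set is shared within its gene family, read 5.76, 5.77 and 4.14 in TAK-875 livers, against 8.89, 6.81 and 6.10 in vehicle livers. The groups did not overlap, and the pairs differed by -3.13, -1.04 and -1.96 (mean -2.04 ± 0.96, SE, adjusted p 0.409). Lbp, the lipopolysaccharide-binding protein, changed by -0.64. Among 39 complement and coagulation genes, 11 were lower and 3 higher in all 3 pairs, with a median of -0.08, against -0.12 in the other lines. None passed in limma, with 6 lower at an unadjusted p under 0.05. Cfb, complement factor B, changed by -0.32 and coagulation factor F7 by -0.36. Among 63 respiratory chain genes, 15 were lower and 2 higher in all 3 pairs. Their median was -0.04, against -0.05 in the other lines, and it was 0.01 without pair 4. In limma none passed, with 3 lower at an unadjusted p under 0.05. The complex I subunit Ndufv3 changed by -0.36.

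Genes of bile acid handling did not pass in CC006/TauUnc, whatever their direction. Abcb11, the bile salt export pump, read 9.33, 10.13 and 10.10 in TAK-875 livers, against 9.26, 10.46 and 9.43 in vehicle livers. These values overlap throughout, and the change was 0.14 ± 0.41 (SE, adjusted p 0.94). Slc10a1, the sodium-dependent bile acid importer, changed by 0.01 ± 0.19 (SE) and Abcb4, the phospholipid exporter, by 0.06 ± 0.30 (SE). The exporters Abcc2 (a probe set shared within its family) and Abcc3 changed by 0.38 and 0.31, and the organic anion importers Slco1a1 and Slco1a4 by 0.36 and -0.38. Cyp7a1, which starts the main route of bile acid synthesis, ranged from 6.12 to 9.37 in TAK-875 livers and from 7.69 to 9.63 in vehicle livers, with a change of -0.20 ± 0.96 (SE). Cyp8b1, which makes cholic acid, changed by -0.57 against -0.61 in the other lines, and the repressor Nr0b2 by -0.32.

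Markers of macrophages and endothelial cells were lowest in the vehicle liver of pair 3. In TAK-875 livers, 1 of 17 macrophage markers was lower and 1 higher in CC006/TauUnc than in the other lines, against 3.98% lower and 3.11% higher over all genes. In vehicle livers, 11 were lower and 1 higher, against 14.4% and 5.86% over all genes. With arrays centred, 5 were lower and 1 higher in vehicle livers, and without pair 3, 2 were lower and 1 higher. With line means as the unit, none of the 17 passed in limma. The list averaged 6.22, 6.05 and 5.94 in the TAK-875 livers of pairs 1, 3 and 4, against 6.21, 5.50 and 5.77 in vehicle livers. The median change was 0.24, against -0.22 in the other lines, and 1 of those had a higher list mean. Adgre1, the macrophage surface protein F4/80, read 5.35, 5.27 and 5.16 in TAK-875 livers, against 5.01, 4.48 and 4.52 in vehicle livers, and none of the 17 passed for the change in limma, nor at an unadjusted p under 0.05. The endothelial list averaged 6.55, 6.35 and 6.27 in TAK-875 livers and 6.63, 5.98 and 6.27 in vehicle livers. With arrays centred, the median change was 0.08 for the macrophage list and -0.16 for the endothelial list. After quantile normalization these medians were 0.20 and -0.09. In whole liver, fewer cells of a type and less RNA per cell cannot be told apart, and the part of these cells in the other results was not tested.

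CC006/TauUnc livers differed from the panel in level in many genes, with the drug and without it. In TAK-875 mice, 645 genes (7.09%) differed from the mean of the other 43 lines, 283 higher (3.11%) and 362 lower (3.98%). In vehicle mice, 1845 genes (20.3%) differed, 533 higher (5.86%) and 1312 lower (14.4%). With arrays centred the vehicle split was 936 higher and 613 lower, so the balance of directions depends on the scaling. The CC006/TauUnc mean was below every other line mean for 181 genes (1.99%) and above for 136 (1.5%) in TAK-875 mice, and below for 402 (4.42%) and above for 180 (1.98%) in vehicle mice. These fits share no arrays. Both called 445 genes (4.89%), which is 69.0% of the calls in TAK-875 mice and 24.1% of those in vehicle mice. Of the 445, 182 (2%) were higher in both, 260 (2.86%) lower in both and 3 (0.033%) opposite. Without pair 4, 310 genes differed in TAK-875 mice and 690 in vehicle mice, 202 of them in both. Tested against the spread of the other line means, 32 genes differed in vehicle mice.

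Of the 10 highest and 10 lowest vehicle levels, 18 also passed in TAK-875 mice, and Cyp2b9 and Gm5165 did not. Cyp2b9, a cytochrome P450, stood 1.34 higher in TAK-875 mice (adjusted p 0.293) and 2.48 higher in vehicle mice, and Gm5165 stood 0.94 (0.569) and 2.38 higher. Mgst2, a microsomal glutathione transferase on chromosome 3, read 8.61, 8.38 and 8.52 in TAK-875 livers and 8.55, 8.16 and 8.45 in vehicle livers. All 6 arrays lay above every other line mean, which reached 8.05 in TAK-875 mice and 7.41 in vehicle mice. The line difference was 4.77 ± 0.32 (SE) in TAK-875 mice and 4.76 ± 0.18 (SE, adjusted p 6.43e-52) in vehicle mice. Ptgds, the prostaglandin D synthase, on chromosome 2, read 11.85, 8.45 and 9.83 in TAK-875 livers and 8.81, 8.78 and 10.21 in vehicle livers, again above every other line mean. In all, 4 genes (0.044%) had all 6 arrays above every other line mean. The others were Thrsp, a regulator of fat synthesis, and Pomt1, a protein mannosyltransferase, both named for that count after their values were seen. The line difference of Thrsp was 1.51 ± 0.60 (SE, adjusted p 0.124 by limma) in TAK-875 mice, which did not pass. In vehicle mice it was 1.26 ± 0.47 (SE, adjusted p 0.0432 by limma). Pomt1 passed in both treatments. No gene had all 6 arrays below every other line mean. Gsn, the actin-severing protein gelsolin, stood 4.34 higher in TAK-875 mice and 4.81 higher in vehicle mice, and its probe set is open to unrelated transcripts. Ugt3a2, a glycosyltransferase, stood 3.25 and 3.20 higher in TAK-875 and vehicle mice, although 14 other lines had a higher vehicle mean. Ctse, the protease cathepsin E, stood 2.52 and 2.43 higher.

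**Figure D5:**
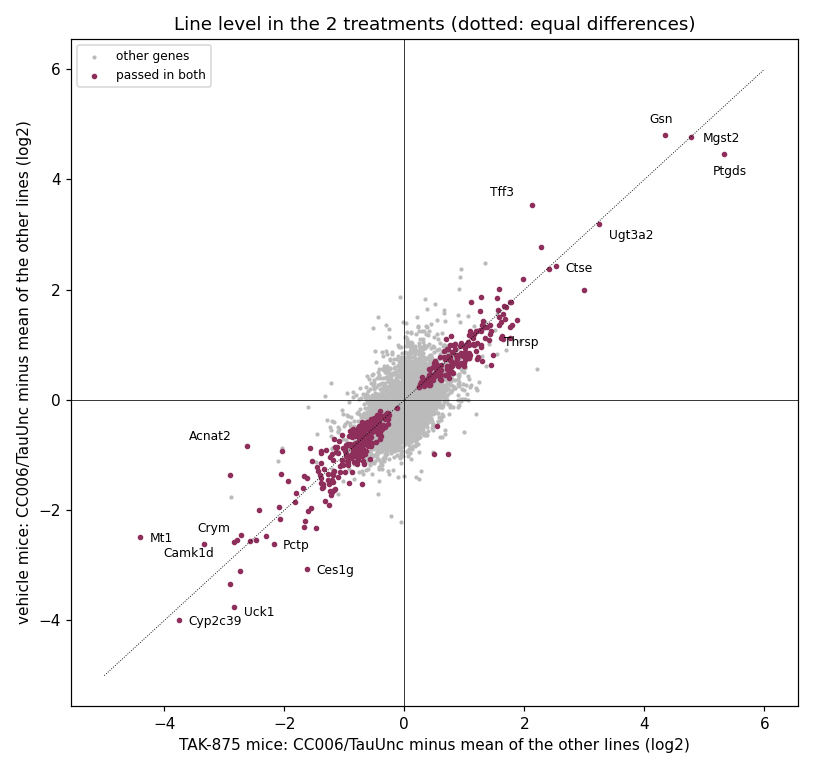
CC006/TauUnc minus the mean of the 43 other lines (log2) for 9093 genes, in TAK-875 mice along the x axis and in vehicle mice along the y axis, with the dotted line at equal differences. Purple points are the 445 genes that passed in both treatments, and Mgst2 lies on the line at 4.77 and 4.76 while Mt1 lies left of it at -4.40 and -2.49.

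Other genes were low in both treatments. Cyp2c39, a cytochrome P450, read 3.28, 3.58 and 3.83 in TAK-875 livers and 2.76, 3.29 and 3.24 in vehicle livers. Its line difference was -3.75 ± 0.30 (SE) in TAK-875 mice and -3.99 ± 0.33 (SE) in vehicle mice. Some other lines were lower, since its mean ranked 36 from the top of the 44 lines in TAK-875 mice and 42 in vehicle mice. Vehicle means of the other lines ran from 2.82 to 9.49. Uck1, a uridine and cytidine kinase, had a line difference of -2.83 in TAK-875 mice and -3.75 in vehicle mice. Crym, which binds thyroid hormone in the cytosol, had the lowest mean of the 44 lines in both treatments, with differences of -2.58 and -2.56. Pik3ap1, a signalling adaptor, stood at -2.90 and -3.33, and the membrane protein Tm4sf1 at -2.74 and -3.10. Ces1g, a carboxylesterase of lipid droplets and very low density lipoprotein, read 7.65, 6.26 and 7.32 in TAK-875 livers, against 5.97, 5.37 and 4.79 in vehicle livers. Every pair was higher with TAK-875, by 1.70 ± 0.46 (SE, adjusted p 0.0595), and the line difference was -1.62 in TAK-875 mice and -3.07 in vehicle mice. Mt1, described among the acute phase genes, had a line difference of -4.40 ± 0.74 (SE, adjusted p 2.52e-06) in TAK-875 mice and -2.49 ± 0.75 (SE, adjusted p 0.0106) in vehicle mice. Whether sequence differences of the line under the probes affect these levels was not tested.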

How the data were processed

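The deposited values are log2 expression levels of probe sets. The submitters' processing notes name RMA and Affymetrix Power Tools for them, with versions not given in the sources used here. Array medians of the deposited table run from 5.40 to 6.22, and no further normalization was applied. Of 16397 probe sets, 13083 name 1 gene in the platform annotation, 261 several and 3053 none. The probe set with the highest mean was kept for each of 9093 genes. Probe sets marked as open to unrelated transcripts (349 genes) or shared within a gene family (611 genes) are named as such.

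The TAK-875 minus vehicle difference of each of 171 pairs was fitted with 1 mean per line in limma 3.58.1 (R 4.3.3, empirical Bayes with a trend, 127 residual degrees of freedom). CC006/TauUnc was tested against 0 and against the unweighted mean of the other 43 lines. Levels were fitted likewise within TAK-875 mice and within vehicle mice. The mean response of the other lines was tested over line means. P-values were adjusted by Benjamini-Hochberg over all genes, with a threshold of 0.05. The labels state that mice were treated in matched pairs, so the pair is part of the fit. No extraction or scan batch was analysed here.

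Named genes were, among those past the threshold, up to 15 rises and 15 falls moving alike in all 3 pairs, up to 8 differences each way from the other lines, the 10 highest and 10 lowest vehicle levels, and the 10 largest shared rises and falls. Up to 4 genes per list with the smallest p, and 11 bile acid genes whatever their result, were added, and exceptions are stated. Of 1067 entries in 39 gene lists, 789 were measured. The line, the lists and the rules were chosen with earlier results of these data known. The fits were tested on simulated data. Alternatives covered probe set choice, scaling, filtering, moderation, pairing and leaving out each pair. Tables and figures used Python 3.11.15, numpy 2.4.6, pandas 2.3.3 and matplotlib 3.10.9. The number of arrays limits the precision.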

Additional observations from a re-analysis of the deposited data

Results flagged for a closer look

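The change of 17 named genes in CC006/TauUnc differed from the mean change of the other 43 lines in limma, with the spread taken over pairs. With line means as the unit, 12 of all 21 genes that differed were called again. Higher than the other lines were Scyl2 by 1.87 (adjusted p 0.0156), Isoc2b by 1.70 (6.45e-05), Sh3gl3 by 1.65 (6.88e-06), Mosmo by 1.60 (0.0448), Ces2b by 1.47 (6.81e-07), Cib3 by 1.45 (0.00983), Ramac by 1.26 (8.68e-05), Tlk2 by 1.19 (0.0469), Tgds by 1.00 (0.0183) and Myo19 by 0.89 (0.00966). Lower were Acnat2 by -1.78 (0.0184), Cep164 by -1.38 (0.0064), Kpna7 by -1.08 (0.0206), Pllp by -1.07 (0.0184), Garnl3 by -1.01 (0.0462), Ngfr by -1.0 (0.0443) and Nav2 by -0.71 (0.0469). Without pair 4, the adjusted p of the difference was 2.09e-06 for Ces2b, 0.00508 for Ramac and 0.0351 for Myo19, and from 0.147 for Acnat2 and Isoc2b to 1 for Garnl3, Kpna7 and Tgds among the other 14. Without pair 3 it was 0.1 for Ramac and 0.299 for Myo19.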

How the results depend on the processing

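The number of genes past the threshold depended on which CC006/TauUnc pair was left out. For the response it ran from 3 to 153, against 45 with all pairs, and for the difference from the other lines from 3 to 87, against 21. For the level it ran from 310 to 485 in TAK-875 mice, against 645, and from 690 to 2192 in vehicle mice, against 1845. With 28 response calls after centring each array on its median (15 higher, 13 lower) and 28 after quantile normalization (16 higher, 12 lower), the excess of rises over falls depended on scaling, since centring moved the median change of all genes to -0.06, against 0.10. The difference from the other lines then split into 9 higher and 9 lower, or 9 and 8, and the vehicle level into 936 and 613, or 798 and 764. The mean response of the other lines split into 1035 and 1275, or 1132 and 1351. Leaving out the 25% of genes with the lowest mean level gave 22 response calls and 7 differences. The 3 pairs fitted alone gave 0 calls in limma, with 69 genes at an unadjusted p under 0.05. Line means as the unit gave 17 differences in change, 12 of them among the 21, and 32 vehicle level calls. Without the replicate block, 32 genes passed for the response and 16 for the difference, so the pairing moved neither count by more than 1.5 times. Leaving out 14 poorly correlated arrays of other lines, an alternative chosen after seeing the data, gave 65 and 26. With the mean of all probe sets, the vehicle level difference of Nav2 was -0.133 and the mean response of Atf6 in the other lines was -0.0077, each opposite in sign; the cause was not tested.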

Other observations

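Among gene groups not described above, none of the members passed for the change in limma. Of 31 targets of NRF2, the oxidative stress factor, 10 were higher and 2 lower in all 3 pairs, 3 were higher at an unadjusted p under 0.05, and the median was 0.06 in CC006/TauUnc and 0.06 in the other lines (-0.09 in CC006/TauUnc with arrays centred). Of 30 targets of the drug sensors CAR and PXR, 4 were higher and 3 lower in all 3 pairs, 0 at an unadjusted p under 0.05, with a median of 0.02 in both (-0.13 in CC006/TauUnc with arrays centred). Of 20 circadian clock genes, 7 were higher and 4 lower in all 3 pairs, 2 and 3 of the list at an unadjusted p under 0.05, with a median of 0.25, against 0.11 (0.10 in CC006/TauUnc with arrays centred). Of 20 bile acid synthesis genes, 8 were higher and 3 lower in all 3 pairs, and 3 were higher at an unadjusted p under 0.05. Their median was 0.17, against -0.08. With arrays centred it was 0.02 in CC006/TauUnc, and 3 were then higher and 3 lower in all 3 pairs. After quantile normalization it was 0.17, with 8 higher and 3 lower. The other medians in CC006/TauUnc were then 0.02 for NRF2 targets, -0.003 for CAR and PXR targets and 0.13 for clock genes.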
